A study of Mus musculus with 11 samples.

Results

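The genes described are 9 immunoglobulin and B-lineage genes, measured in mouse cerebellar tumours. They are the heavy chain constant genes Igha, Ighg2c and Ighm, the kappa light chain constant gene Igkc, the joining chain gene Jchain, the chaperone gene Mzb1, the antigen receptor genes Cd79a and Cd79b, and Cd52. The genes were taken by symbol from a table of 38406 genes. All 9 had a row, with Jchain under its older symbol Igj. They were selected on expression values of the same 11 libraries, since earlier results showed some of them to differ between tumour groups, so their differences are described without a test.

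The 11 libraries came from fresh frozen medulloblastomas of CD1 mice, an outbred strain. In the N1ICD tumours (n = 3), Math1-positive cells expressed MYC together with Gfi1 and with N1ICD, the active inner part of the receptor Notch1. In the S100b-cell tumours (n = 3), the cells that expressed MYC and Gfi1 were S100b-positive. The MYC-Otx2 tumours (n = 3) and the MYC-Gfi1 tumours (n = 2) carried those oncogenes constitutively and are models of Group 3 medulloblastoma, an aggressive subgroup. MYC was thus shared by all 4 groups and Gfi1 by every group except MYC-Otx2. The sources used here give neither the age of the mice nor whether their immune system was complete.

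An antibody is built from heavy and light chains, and a B cell joins V, D and J segments of the heavy chain locus to a constant gene. A B cell starts with Ighm and can switch to an Ighg or Igha constant gene, which gives IgG or IgA antibodies. Plasma cells, the antibody-secreting end stage, make very large amounts of immunoglobulin, Jchain and Mzb1 transcripts and lose much of the B cell surface programme, whereas Cd79a and Cd79b encode the signalling chains of the B cell receptor. Few such cells are found in the healthy brain tissue itself. They are known in its membranes.

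Library totals ran from 2.58 to 3.38 M counts in N1ICD, 12.77 to 15.19 M in S100b-cell, 6.97 to 8.33 M in MYC-Otx2 and 6.53 to 7.53 M in MYC-Gfi1 tumours. The column names follow 3 styles, 1 each for the N1ICD and the S100b-cell libraries and 1 shared by the constitutive groups, so the library set and the tumour group cannot be told apart in any pair other than MYC-Otx2 and MYC-Gfi1. Separate animals are named in no label, so the spread between libraries of a group may be technical. Levels are CPM, counts scaled to a common library size, taken over normalised totals of the 15228 genes that passed a low-count filter. Of the 9 genes, 7 passed it and Ighm and Cd79a did not. The MYC-Gfi1 libraries stood apart from each other: 8 genes of cerebellar neurons, mostly of the granule cell lineage, summed to 212 CPM in replicate 1 and 5413 CPM in replicate 2. Otx2 ran from 13.7 to 97.0 CPM in the MYC-Otx2 libraries and reached 13.7 CPM in 1 other library, N1ICD replicate 1. The libraries are 3′ tag libraries, in which the count of a gene does not scale with its length.

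Antibody heavy chain transcripts were at or near 0 in the N1ICD and MYC-Otx2 tumours, low and uneven in the S100b-cell tumours, and abundant in the MYC-Gfi1 tumours. Igha, the constant gene of IgA, lies on chromosome 12 (mm10, 113254830 to 113260236, minus strand). It had 0 counts in each N1ICD library, 1.29, 2.90 and 27.8 CPM in S100b-cell tumours, 0.283, 0.374 and 0.116 CPM in the MYC-Otx2 tumours, and 2873 and 587 CPM in the MYC-Gfi1 tumours. The 4 groups did not overlap. Its highest S100b-cell library was 21.5 times the lowest, and the MYC-Gfi1 libraries differed by 4.89 times.

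Ighg2c, a constant gene of the IgG class, lies on the same chromosome (113285325 to 113288932, minus strand). It had 0 counts in the N1ICD tumours, 0, 1.80 and 15.3 CPM in S100b-cell tumours, 0.848, 0.125 and 0.116 CPM in the MYC-Otx2 tumours, and 2191 and 248 CPM in the MYC-Gfi1 tumours. The MYC-Gfi1 libraries stood above all others, and the S100b-cell and MYC-Otx2 libraries overlapped. Some inbred mouse strains carry Ighg2a in place of Ighg2c, and the sources used here do not say which of the alleles these CD1 tumours carry.

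The IgG genes resemble each other, which can matter for how reads were divided among them. How much this affected reads from the 3′ ends of the transcripts was not measured. Over aligned coding bases of the GENCODE transcripts (GRCm38, the assembly also named mm10), Ighg2c was identical to Ighg2b at 85.9%, to Ighg1 at 77.7%, to Ighg3 at 76.6% and to Igha at 55.4%. The longest stretch that Ighg2c shared with Ighg2b was 78 bases long, at coding bases 562 to 639 of Ighg2c. It is printed below with the same stretch of Ighg1, which differs from Ighg2c at 16 bases, and of Ighg3, which differs at 2. Capitals mark the bases unlike Ighg2c.
Ighg2c: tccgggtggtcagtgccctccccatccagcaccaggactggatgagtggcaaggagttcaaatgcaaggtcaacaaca
Ighg2b: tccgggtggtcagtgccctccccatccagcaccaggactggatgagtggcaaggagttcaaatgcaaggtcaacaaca
Ighg1: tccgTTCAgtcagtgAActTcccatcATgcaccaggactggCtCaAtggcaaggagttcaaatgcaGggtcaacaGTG
Ighg3: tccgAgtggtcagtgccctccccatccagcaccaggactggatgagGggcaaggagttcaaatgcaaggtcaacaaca
A read that fell wholly inside the shared stretch could not be placed in either Ighg2c or Ighg2b. Of all 50-base words in the Ighg2c transcripts, 5.49% also occurred in another gene, mostly Ighg2b. The share was 4.15% for Ighg2b, 1.58% for Ighg3, 0.393% for Ighg1 and 0 for Igha, Ighm, Igkc and Jchain.

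Ighm, the constant gene of IgM and the first one a B cell uses, had another pattern. It lies at 113418558 to 113422730 on chromosome 12, minus strand. It had 0.857, 0 and 0 CPM in the N1ICD tumours, 0.971, 1.11 and 4.54 CPM in S100b-cell tumours, 0 in all 3 MYC-Otx2 tumours, and 0.583 and 0.290 CPM in the MYC-Gfi1 tumours. The S100b-cell tumours were highest here, and every one of their libraries lay above both MYC-Gfi1 libraries, which held 5 and 2 counts.

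**Figure D1:**
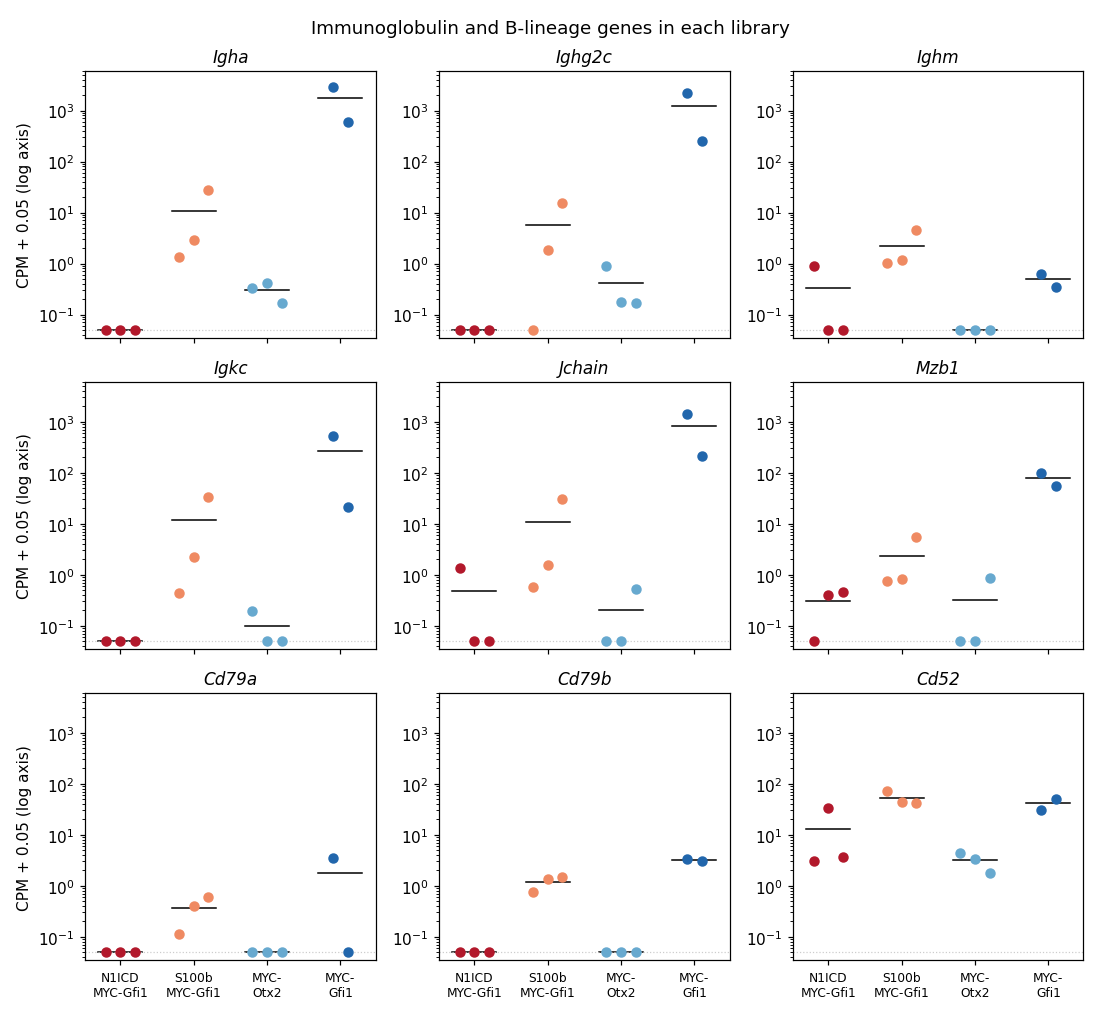
CPM + 0.05 on a log axis for each of the 9 genes. Points are libraries in replicate order, lines are group means, and the dotted line marks 0 CPM. Igha, Ighg2c, Igkc, Jchain and Mzb1 averaged between 78.1 and 1730.2 CPM in the MYC-Gfi1 tumours, whereas Ighm stood highest in the S100b-cell tumours and Cd52 was detected in every library.

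The heavy chain classes differed between the groups and between libraries of the S100b-cell group. In the N1ICD and MYC-Otx2 tumours, a library held at most 8 heavy chain counts, so no shares are given. Of 35 heavy chain counts in S100b-cell replicate 1, 57.1% were Igha (95% Wilson interval 40.9 to 72.0) and 42.9% were Ighm (28.0 to 59.1). The IgG class had 0 of these counts (0 to 9.89%). In S100b-cell replicate 2, 39.3% of 107 counts were Igha (30.5 to 48.7), 45.8% were of the 4 IgG genes (36.7 to 55.2) and 15.0% were Ighm (9.42 to 22.9). In S100b-cell replicate 3, IgG genes took 83.2% of 2455 counts (81.6 to 84.6), Igha 14.5% (13.1 to 15.9) and Ighm 2.36% (1.83 to 3.04). The IgG share was thus 0 in the library with the fewest heavy chain counts and 83.2% in the one with the most.

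Igha took nearly equal shares in both MYC-Gfi1 libraries. It took 48.8% of 50469 heavy chain counts in replicate 1 (48.4 to 49.3) and 46.8% of 8634 in replicate 2 (45.8 to 47.9), and IgG genes took 51.2% (50.7 to 51.6) and 53.1% (52.1 to 54.2). Within the IgG class the libraries differed: Ighg2c took 37.2% and Ighg1 5.91% of heavy chain counts in replicate 1, whereas Ighg2c took 19.8% and Ighg1 22.6% in replicate 2. Ighg2b took 7.99% and 10.7%. Ighm took 0.00991% (0.00423 to 0.0232) and 0.0232% (0.00635 to 0.0844), so these antibody transcripts were almost wholly of switched classes. Ighe, the constant gene of IgE, had 0 counts in all 11 libraries. The intervals cover counting error only, since the sources used here do not say whether reads with the same molecular identifier were merged.

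Ighg3 was counted in 1 S100b-cell library at 11.5 CPM, with 147 counts, and in the MYC-Gfi1 libraries at 0.583 and 1.16 CPM. It took 5.99% of heavy chain counts in S100b-cell replicate 3 (5.12 to 7.0), against 0.00991% (0.00423 to 0.0232) and 0.0927% (0.0470 to 0.183) in the MYC-Gfi1 libraries. In that S100b-cell library Ighg1 led with 1228 of the 2455 counts. Igha led in both MYC-Gfi1 libraries.

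**Figure D2:**
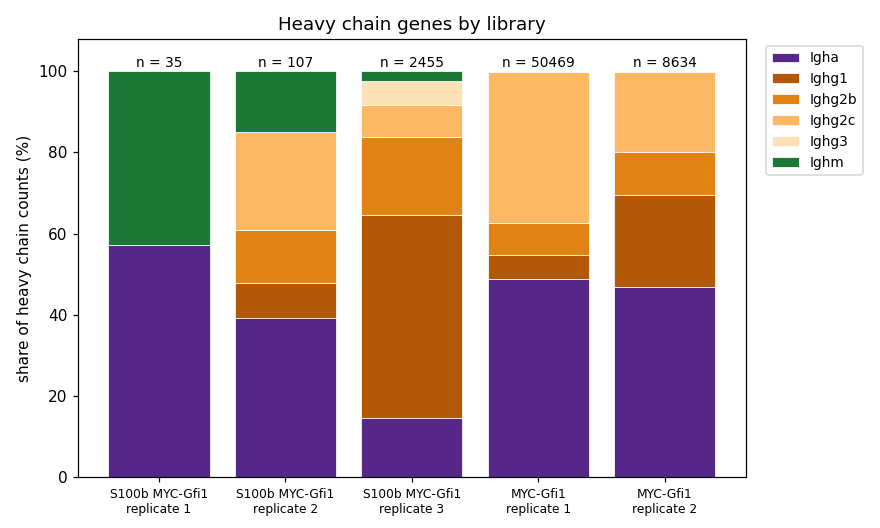
Share of heavy chain constant gene counts, in percent, for each S100b-cell and MYC-Gfi1 library, with the number of heavy chain counts above each bar. Igha takes 48.8% and 46.8% in the MYC-Gfi1 libraries, and Ighm is visible in all 3 S100b-cell bars, at 42.9%, 15.0% and 2.36%.

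Light chain transcripts, like those of Igha, were highest in MYC-Gfi1 replicate 1. Igkc, the constant gene of kappa light chains, lies on chromosome 6 (70726435 to 70726966, plus strand), within the span of a long noncoding RNA on the same strand. It had 0 counts in the N1ICD tumours, 0.388, 2.14 and 32.8 CPM in S100b-cell tumours, 0.141, 0 and 0 CPM in the MYC-Otx2 tumours, and 517 and 21.5 CPM in the MYC-Gfi1 tumours. S100b-cell replicate 3 exceeded MYC-Gfi1 replicate 2, so these groups overlapped in Igkc, as they did not in Igha. Within the S100b-cell group Igkc spanned 84.6 times, the widest range among the 8 genes with counts in all 3 of those libraries.

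The ratio of heavy to kappa light chain counts spanned a wider range in the MYC-Gfi1 than in the S100b-cell tumours. Heavy chain counts per Igkc count were 5.83, 3.45 and 5.85 in the S100b-cell libraries, against 11.4 and 58.3 in the MYC-Gfi1 libraries. Iglc2, a lambda light chain constant gene that shares 7.65% of its 50-base words with other genes, mostly Iglc3, had 0.194, 0.692 and 2.19 CPM in S100b-cell tumours, against 13.3 and 2.90 CPM in MYC-Gfi1 tumours, and 0 counts in the other groups. Igkc exceeded Iglc2 in each of these 5 libraries, by 2.0, 3.10 and 15.0 times in the S100b-cell and by 38.9 and 7.40 times in the MYC-Gfi1 libraries. Iglc2 was the only lambda constant gene analysed, so neither ratio covers all light chains. The balance of kappa and lambda chains cannot be read from them.

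Variable segments, each of which many B cell clones can share, were thinly covered by these 3′ libraries. The table held 221 of them. Together they had 1, 2 and 1 counts in the N1ICD libraries, 1, 9 and 20 in the S100b-cell libraries, 0 in each MYC-Otx2 library, and 539 and 335 in the MYC-Gfi1 libraries. In MYC-Gfi1 replicate 1, 18 segments had a count and the lambda segment Iglv1 took 84.8% of the 539 (81.5 to 87.6), ahead of the heavy chain segment Ighv1-63 with 16 counts and the kappa segment Igkv10-94 with 9. In replicate 2, 10 segments had a count and the heavy chain segment Ighv9-1 took 79.1% of the 335 (74.4 to 83.1), ahead of Iglv1 with 26 and Ighv4-1 with 14. Each MYC-Gfi1 library was thus led by a single segment, and by a different one. Lambda segments together had more counts than kappa segments in both, 462 against 47 in replicate 1 and 31 against 16 in replicate 2. How many B cell clones were present cannot be read from these counts. These segments were named after their values were seen.

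The immunoglobulin constant genes analysed here, which are Igha, Ighm, Ighe, the 4 IgG genes, Igkc and, of the lambda genes, Iglc2 alone, together took 7.45e-05%, 0 and 0% of the N1ICD libraries, 0.000290%, 0.000997% and 0.0227% of the S100b-cell libraries, 0.000129%, 6.90e-05% and 2.40e-05% of the MYC-Otx2 libraries, and 0.730% and 0.135% of the MYC-Gfi1 libraries. In counts these were 2, 0 and 0 in N1ICD, 44, 148 and 2903 in S100b-cell, 9, 5 and 2 in MYC-Otx2, and 55017 and 8802 in MYC-Gfi1 libraries. The S100b-cell libraries are deeper than the rest, so the same count is a smaller share there. The shallow N1ICD libraries limit what could be seen there: 3 counts correspond to 1.29, 1.05 and 1.22 CPM in them. In bulk tumour RNA, fewer cells of a type and less RNA per cell cannot be told apart.

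Jchain, whose product links IgA and IgM units into polymers, lies on chromosome 5 (88519809 to 88527891, minus strand). It had 1.29, 0 and 0 CPM in the N1ICD tumours, 0.518, 1.52 and 30.9 CPM in S100b-cell tumours, 0, 0 and 0.462 CPM in the MYC-Otx2 tumours, and 1412 and 208 CPM in the MYC-Gfi1 tumours. The MYC-Gfi1 libraries stood above all others. Heavy chain counts per Jchain count were 4.38, 4.86 and 6.22 in the S100b-cell libraries and 4.17 and 6.03 in the MYC-Gfi1 libraries, ranges that overlap while the Jchain level itself differed by 73.8 times between the group means.

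The promoters of Jchain and Cd79a were the 2 of the 9 that the RefSeq promoter table (GRCm38.p6) held. They are shown because they set a plasma cell gene beside a B cell receptor gene, as the 250 bases before each RefSeq start. The RefSeq start of Cd79a lies inside the gene span that GENCODE gives and that is printed with its values, so the last part of its stretch falls within that span. The Jchain stretch is chr5:88527898-88528147 on the minus strand, and the Cd79a stretch is chr7:24897247-24897496 on the plus strand. Capitals mark the E-box CANNTG, the letters bound by E2A and related factors, and in Cd79a also CAAGGGAAT, a shorter site like that of the B cell factor EBF1.
Jchain: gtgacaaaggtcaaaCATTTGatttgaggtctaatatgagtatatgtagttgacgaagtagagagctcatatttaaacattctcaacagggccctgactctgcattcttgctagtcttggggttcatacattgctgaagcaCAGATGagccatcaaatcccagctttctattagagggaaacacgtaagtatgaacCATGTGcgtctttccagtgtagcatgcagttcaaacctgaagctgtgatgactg
Cd79a: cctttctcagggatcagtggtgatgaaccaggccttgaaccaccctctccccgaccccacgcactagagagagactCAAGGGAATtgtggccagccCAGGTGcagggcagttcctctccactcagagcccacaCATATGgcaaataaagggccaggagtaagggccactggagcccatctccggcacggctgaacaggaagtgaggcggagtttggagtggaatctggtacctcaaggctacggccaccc
The Jchain stretch held 3 E-boxes, whose first bases lay 235, 109 and 54 bases before the RefSeq start. The Cd79a stretch held 2, at 154 and 117 bases before the start, and CAAGGGAAT at 174. E-boxes occurred in 66.2% of 32851 promoter stretches of the same length and CAAGGGAAT, which was picked after the sequence was seen, in 0.225%, on either strand. Neither stretch held the octamer ATGCAAAT, present in 1.60% of promoters.

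Mzb1 encodes a chaperone of the endoplasmic reticulum that helps assemble IgM and is made in marginal zone B cells and plasma cells. It lies on chromosome 18 (35647267 to 35649367, minus strand) and overlaps Spata24 on the same strand, and 53.5% of its 50-base words also occur in another gene, mostly Spata24. It had 0, 0.349 and 0.406 CPM in the N1ICD tumours, 0.712, 0.761 and 5.40 CPM in S100b-cell tumours, 0, 0 and 0.809 CPM in the MYC-Otx2 tumours, and 100.4 and 55.9 CPM in the MYC-Gfi1 tumours. The MYC-Gfi1 libraries differed by 1.79 times in Mzb1, against 24.0 times in Igkc. Jchain counts per Mzb1 count were 0.727, 2.0 and 5.72 in the S100b-cell and 14.1 and 3.72 in the MYC-Gfi1 libraries.

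In the MYC-Gfi1 tumours the B cell receptor genes lay below Igha, Ighg2c, Igkc and Jchain, and above Ighm in all but 1 value, Cd79a in replicate 2. In S100b-cell replicate 1 Cd79b exceeded Igkc and Jchain. Cd79b lies on chromosome 11 (106311341 to 106314762, minus strand). It had 0 counts in the N1ICD tumours, 0.712, 1.31 and 1.41 CPM in S100b-cell tumours, 0 counts in the MYC-Otx2 tumours, and 3.26 and 3.05 CPM in the MYC-Gfi1 tumours. Its groups with counts did not overlap, and it was even within each of them, spanning 1.98 times in the S100b-cell and 1.07 times in the MYC-Gfi1 libraries.

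Cd79a, its partner, lies on chromosome 7 (24897381 to 24902197, plus strand). It had 0.0647, 0.346 and 0.547 CPM in S100b-cell tumours, 3.50 and 0 CPM in the MYC-Gfi1 tumours, and 0 counts in the N1ICD and MYC-Otx2 tumours. MYC-Gfi1 replicate 2 held 21 Cd79b counts and 0 Cd79a counts. Cd79a shares 8.31% of its 50-base words with another annotated gene model.

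Cd52 encodes a small glycoprotein anchored on the surface of lymphocytes and other leukocytes, so it is the least restricted of the 9 genes. It lies on chromosome 4 (134082448 to 134095082, minus strand) and overlaps Crybg2 on the opposite strand, which had at most 22 counts in any library. It had 3.00, 32.8 and 3.65 CPM in the N1ICD tumours, 73.8, 44.3 and 41.1 CPM in S100b-cell tumours, 4.38, 3.24 and 1.73 CPM in the MYC-Otx2 tumours, and 31.1 and 51.0 CPM in the MYC-Gfi1 tumours. The S100b-cell and MYC-Gfi1 libraries overlapped, and N1ICD replicate 2 stood apart in its group at over the lowest MYC-Gfi1 level. The mean Cd52 level was 13.1 ± 17 CPM in N1ICD, 53.1 ± 18.0 CPM in S100b-cell and 3.12 ± 1.33 CPM in MYC-Otx2 tumours (SD, n = 3 each), and 41.1 ± 14.0 CPM in MYC-Gfi1 tumours (SD, n = 2), so the S100b-cell mean was the highest.

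Set side by side, the MYC-Otx2 and MYC-Gfi1 tumours differed in nearly all 9 genes. Every MYC-Otx2 library lay below every MYC-Gfi1 library in 8 of the 9 genes, where 23.6% of all tested genes showed this direction without overlap. Cd79a was the exception. Ighm, among the 8, had not passed the filter and rests on a few counts, 0 in each MYC-Otx2 library against 5 and 2 in the MYC-Gfi1 libraries. Fitted differences were -12.65 ± 1.76 for Igha, -11.73 ± 2.23 for Ighg2c, -12.19 ± 2.63 for Igkc, -12.13 ± 2.14 for Jchain, -8.03 ± 1.37 for Mzb1 and -3.72 ± 0.90 for Cd52 (log2 ± SE). Cd79b was at least 25.0-fold lower, taken against 3 counts over the MYC-Otx2 group. Without MYC-Gfi1 replicate 1, the library with most antibody counts, the difference was -11.07 for Igha and -8.51 for Igkc, and without replicate 2 it was -13.38 and -13.13.

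Against the same MYC-Gfi1 libraries, the N1ICD tumours lay below in 6 of the 9 genes without overlap, beside 19.8% of all tested genes. Taken against 3 counts over the N1ICD group, Igha was at least 4421-fold lower. On the same footing the bound was 3116-fold for Ighg2c, 688-fold for Igkc and 8.07-fold for Cd79b. Jchain differed by -10.94 ± 2.13 and Mzb1 by -8.15 ± 1.5 (log2 ± SE). Ighm, Cd79a and Cd52 overlapped, and the Cd52 difference was -1.63 ± 0.85.

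The S100b-cell tumours, which carried the same oncogenes, lay below the MYC-Gfi1 tumours in 5 of the 9 genes without overlap, beside 18.9% of all tested genes, and above them in Ighm. Fitted differences were -7.35 ± 1.37 for Igha, -7.75 ± 1.83 for Ighg2c, -6.21 ± 1.58 for Jchain, -5.09 ± 1.15 for Mzb1, -4.52 ± 1.71 for Igkc and -1.45 ± 0.88 for Cd79b (log2 ± SE). Cd52 differed by 0.37 ± 0.85. The difference was smallest in size for Cd79b and Cd52. These values rest on single libraries: without S100b-cell replicate 3 the Igkc difference was -7.72, and without MYC-Gfi1 replicate 1 it was -0.84.

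Against the MYC-Otx2 tumours, the S100b-cell tumours lay above in 7 of the 9 genes without overlap, beside 28.6% of all tested genes in that direction. Ighm and Cd79a, among the 7, had not passed the filter. Fitted differences were 5.30 ± 1.48 for Igha, 7.67 ± 2.48 for Igkc, 5.92 ± 1.88 for Jchain and 4.09 ± 0.87 for Cd52 (log2 ± SE). Cd79b was at least 9.06-fold and Ighm at least 17.5-fold higher. Ighg2c and Mzb1 overlapped. Without S100b-cell replicate 3 the differences in Igha, Igkc and Jchain were 2.97, 4.44 and 2.50, whereas Cd52 differed by 4.24.

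The N1ICD tumours lay below the S100b-cell tumours in 7 of the 9 genes without overlap, beside 15.1% of all tested genes. Ighm and Cd79a, among the 7, had not passed the filter behind that share. Cd79a rests on a few counts, with 0 in N1ICD libraries and at most 0.547 CPM in S100b-cell libraries. This is less than 3 counts would give in any N1ICD library. The lowest S100b-cell values of Igkc, Mzb1, Cd79b and Ighm, at 0.388, 0.712, 0.712 and 0.971 CPM, also lay below that level. The shallow N1ICD libraries thus limit what the lack of overlap shows for these genes. Igha was at least 27.2-fold, Igkc at least 30.1-fold and Cd79b at least 2.92-fold lower, and the differences were -3.06 ± 1.49 for Mzb1 and -2.00 ± 0.80 for Cd52 (log2 ± SE). Ighg2c and Jchain overlapped. Between N1ICD and MYC-Otx2 tumours, 2 of the 9 genes, Igha and Ighg2c, lay lower without overlap, beside 20.8% of all tested genes, and both rest on a few counts: 0 in N1ICD and 6 and 8 in MYC-Otx2 tumours. Cd52 differed by 2.09 ± 0.83 between these groups, with overlap.

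The wider B-lineage programme was read from 6 lists set by textbook roles: other immunoglobulin constant genes, plasma cell genes, B cell genes, B cell precursor genes, immunoglobulin receptor genes, and ligands of B cell survival and homing. Of their 76 symbols, 72 had a row and 42 passed the filter. The filter asked for enough counts in only as many libraries as the smallest group, MYC-Gfi1, held. Genes high in its 2 libraries alone could thus pass, so their falls against that group, and the medians, are partly set by the filter. The same filter applied to all tested genes. No gene of the B cell precursor list passed it. Tests are from edgeR's quasi-likelihood fit over all 15228 genes, with adjusted p called under 0.05.

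In MYC-Otx2 against MYC-Gfi1 tumours, 9 of the 42 genes were called and all 9 fell, against 5.46% of all genes called in either direction. The median difference of the 42 was -2.17 (log2), against -0.14 over all genes. The plasma cell list held 4 of the 9. Of its 15 tested genes, 7 lay lower in MYC-Otx2 tumours without overlap and 2, Fkbp11 and Sdc1, lay higher. Over all 15228 tested genes these counts were 3587 and 3059. The 16 genes of the list summed to 237 to 290.1 CPM in MYC-Otx2 and 211 to 437 CPM in MYC-Gfi1 tumours, which overlapped. Pou2af1, a coactivator that B cells and plasma cells need for antibody production, had 0 counts in the MYC-Otx2 tumours and 26.6 and 14.7 CPM in the MYC-Gfi1 tumours, at least 163-fold lower (adjusted p = 0.0181). Irf4, a transcription factor of plasma cells, had 0.283, 0.125 and 0.347 CPM in MYC-Otx2 and 11.8 and 3.34 CPM in MYC-Gfi1 tumours, a log2 difference of -4.83 ± 1.16 (SE; adjusted p = 0.0428). Pou2af1 and Irf4 were highest in the MYC-Gfi1 libraries and passed the filter through them, so their p-values give no separate support for a fall. Ell2, an elongation factor that favours the secreted form of heavy chain transcripts, fell by 2.45 ± 0.60 (adjusted p = 0.0465), and Slamf7, a receptor also found on natural killer and T cells, by 6.53 ± 1.64 (adjusted p = 0.0481).

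The other genes that fell between these groups were Iglc2, Vpreb3, Btk, Fcgr1 and Tgfb1. Vpreb3, an immunoglobulin-like chain of the B lineage, fell by 4.85 ± 1.03 on the log2 scale (SE; adjusted p = 0.0331), and Btk, a kinase of receptor signalling also made in myeloid cells, by 3.98 ± 1.01 (adjusted p = 0.0499). Fcgr1, a high affinity IgG receptor of macrophages, fell by 2.91 ± 0.64 (adjusted p = 0.0349), and Tgfb1, a cytokine that directs switching to IgA, by 2.07 ± 0.51 (adjusted p = 0.0457). Ighg1 and Ighg2b, with 283 to 348 and 134 to 470.2 CPM in the MYC-Gfi1 tumours, missed the threshold (adjusted p = 0.0594 and 0.0744). Xbp1, the factor that expands the secretory apparatus of plasma cells and is made in many other cells, was named after its values were seen: it had 13.4, 18.8 and 19.6 CPM in MYC-Otx2 and 61.0 and 17.6 CPM in MYC-Gfi1 tumours, which overlapped (adjusted p = 0.137). The count of 9 was 2 without MYC-Gfi1 replicate 2, 0 without MYC-Otx2 replicate 1 or replicate 3, 1 without MYC-Otx2 replicate 2, and 3 without N1ICD replicate 3, S100b-cell replicate 2 or S100b-cell replicate 3.

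**Figure D3:**
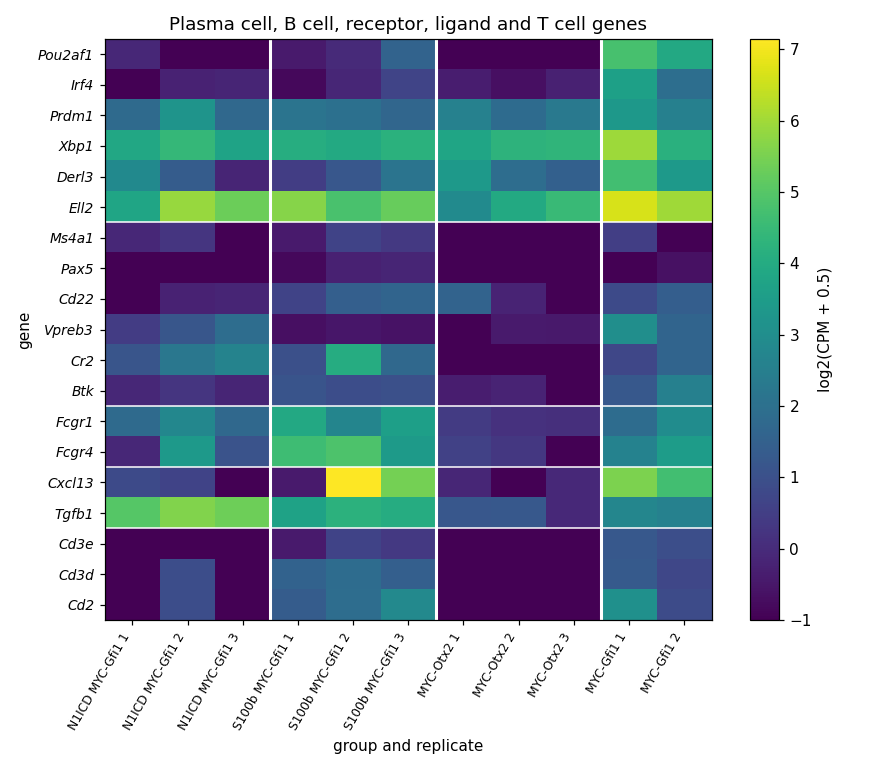
Level of 19 genes, as log2(CPM + 0.5), in each of the 11 libraries, with white lines between groups of tumours and between plasma cell, B cell, immunoglobulin receptor, ligand and T cell genes. Pou2af1 and Irf4 are brightest in the MYC-Gfi1 libraries, Cxcl13 in S100b-cell replicate 2, and Tgfb1 in the N1ICD libraries. The genes are a selection from the lists. Plasma cell genes not shown include Fkbp11, Txndc5 and Sdc1, with higher means in MYC-Otx2 than in MYC-Gfi1 tumours. These were 95.6 against 35.3, 51.5 against 24.8 and 36.8 against 11.3 CPM. Tnfrsf17, also not shown and named after its values were seen, had 0 counts in every library. The remaining plasma cell genes not shown had higher means in MYC-Gfi1 tumours.

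In N1ICD against MYC-Gfi1 tumours, 2 of the 42 genes fell and 1 rose, against 11.5% of all genes called, with a median of -1.09 (log2) against -0.01. Pou2af1 had 0.429, 0 and 0 CPM in the N1ICD tumours, against 26.6 and 14.7 CPM in the MYC-Gfi1 tumours, a log2 difference of -7.13 ± 1.44 (SE; adjusted p = 0.0213). Irf4 fell by 4.79 ± 1.28 (adjusted p = 0.0394). Pou2af1 and Irf4 passed the filter through the MYC-Gfi1 libraries, where they were highest, so these p-values give no separate support for a fall. Tgfb1 had 31.3, 48.1 and 40.6 CPM in the N1ICD tumours, against 6.18 and 5.52 CPM in the MYC-Gfi1 tumours, and rose by 2.77 ± 0.54 (adjusted p = 0.0152). The share called, 3 of 42, was not above that of all genes. The count was 1 without N1ICD replicate 3, 6 without S100b-cell replicate 1 and 5 without S100b-cell replicate 3.

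In S100b-cell against MYC-Gfi1 tumours, 1 of the 42 genes was called and fell, against 4.35% of all genes called, with a median of -0.46 (log2) against 0.01. Vpreb3 had 0.129, 0.207 and 0.156 CPM in S100b-cell tumours, against 7.69 and 2.61 CPM in the MYC-Gfi1 tumours, a log2 difference of -4.85 ± 1.00 (SE; adjusted p = 0.0303). Its level in the N1ICD tumours was 0.857, 1.74 and 3.25 CPM. The call was lost without MYC-Gfi1 replicate 2, MYC-Otx2 replicate 3, S100b-cell replicate 1 or S100b-cell replicate 2, where 0 genes were called.

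In S100b-cell against MYC-Otx2 tumours, 9 of the 42 genes rose and 1 fell, against 17.9% of all genes called, with a median of 1.72 (log2) against 0.17. Of the immunoglobulin receptor genes, 4 of 7 rose: Fcgr1 by 3.96 ± 0.62 on the log2 scale (SE; adjusted p = 0.00403), Fcgr4 by 5.19 ± 1.21 (adjusted p = 0.0193), the shared signalling chain Fcer1g by 2.10 ± 0.63 (adjusted p = 0.0448) and Fcgr3 by 1.47 ± 0.45 (adjusted p = 0.0493). These receptors are made mainly by myeloid cells. Cxcl13, the chemokine that draws B cells, had 0.259, 141 and 43.2 CPM in S100b-cell tumours, against 0.424, 0 and 0.462 CPM in the MYC-Otx2 tumours, and rose by 7.63 ± 1.83 (adjusted p = 0.0209). S100b-cell replicate 1 lay within the MYC-Otx2 range.

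Cr2, the complement receptor of mature B cells and follicular dendritic cells, had 1.49, 16 and 2.89 CPM in S100b-cell tumours and 0 counts in the MYC-Otx2 tumours, at least 53.9-fold higher (adjusted p = 0.0108). Pou2af1 was at least 8.57-fold higher (adjusted p = 0.0354), at 0.259, 0.484 and 2.50 CPM in the S100b-cell tumours. Slamf7 rose by 7.98 ± 1.63 on the log2 scale (SE; adjusted p = 0.0110) and Tgfb1 by 3.49 ± 0.49 (adjusted p = 0.00237). Txndc5, a folding enzyme of the endoplasmic reticulum that plasma cells use but that is not specific to them, fell by 1.71 ± 0.48 (adjusted p = 0.0366). The count of 10 was 4 without MYC-Otx2 replicate 1, MYC-Otx2 replicate 2 or S100b-cell replicate 2, 5 without MYC-Otx2 replicate 3 and 6 without S100b-cell replicate 3.

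In N1ICD against S100b-cell tumours, edgeR called 0 of the 42 genes, against 1.21% of all genes. At an unadjusted p under 0.05 there were 13, DESeq2 called 5 and limma-voom 0, and edgeR called 1 without S100b-cell replicate 1. In N1ICD against MYC-Otx2 tumours, 5 rose and 1 fell, against 21.8% of all genes called. Those that rose were Tgfb1 by 4.84 ± 0.52 on the log2 scale (SE; adjusted p = 0.000725), Fcgr1 by 2.55 ± 0.61 (adjusted p = 0.0177), Vpreb3 by 3.45 ± 1.00 (adjusted p = 0.0344), Slamf7 by 5.53 ± 1.62 (adjusted p = 0.0363) and Cr2, at least 30.6-fold higher (adjusted p = 0.0131). Slamf7 had 0, 7.32 and 0.406 CPM in the N1ICD tumours, against 0, 0.125 and 0 CPM in the MYC-Otx2 tumours, so the groups overlapped and N1ICD replicate 2 stood apart. Fkbp11, a folding enzyme, fell by 1.73 ± 0.35 (adjusted p = 0.00883), and the count of 6 was 3 without MYC-Otx2 replicate 2.

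Among the 21 genes of the B cell list, levels in the tumours with antibody transcripts ranged widely. Blnk, an adaptor of B cell receptor signalling also made in macrophages, had 1.04, 3.18 and 8.84 CPM in the S100b-cell libraries and 5.71 and 7.55 CPM in the MYC-Gfi1 libraries. Bach2, a repressor that holds back plasma cell formation and is made in other cells too, had 15.2, 8.30 and 4.77 CPM in the S100b-cell libraries and 12.7 and 42.1 CPM in the MYC-Gfi1 libraries. Ms4a1 and Pax5 were lower. Ms4a1, the gene of CD20, had 0.259, 1.04 and 0.782 CPM in the S100b-cell libraries and 0.933 and 0 CPM in the MYC-Gfi1 libraries. Ms4a1 and Pax5, the B cell identity factor, were at 0 counts in all MYC-Otx2 libraries. Pax5 held 0.0647, 0.346 and 0.391 CPM in S100b-cell tumours, against 0 and 0.145 CPM in the MYC-Gfi1 tumours. Ms4a1 and Pax5 did not pass the filter, and all 4 genes were named after their values were seen.

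Markers of other cells were read beside these results. The 20 T and natural killer cell markers summed to 6.09 to 58.6 CPM in N1ICD, 55.1 to 116 in S100b-cell, 2.49 to 16.5 in MYC-Otx2 and 40.5 to 43.9 in MYC-Gfi1 tumours. The 16 microglia and macrophage markers summed to 206 to 505 CPM in N1ICD, 1354 to 1795 in S100b-cell, 213 to 848 in MYC-Otx2 and 1133 to 1149 in MYC-Gfi1 tumours. The microglia and macrophage sum was higher in every S100b-cell and MYC-Gfi1 library than in any N1ICD or MYC-Otx2 library. The T and natural killer cell sums overlapped, with N1ICD replicate 2, at 58.6 CPM, above both MYC-Gfi1 libraries. In MYC-Otx2 against MYC-Gfi1 tumours 1 of 14 tested T and natural killer cell markers was called, Cd2, which was at least 36.6-fold lower (adjusted p = 0.0451), against 5.46% of all genes called. All MYC-Otx2 libraries lay below all MYC-Gfi1 libraries in 12 of the 16 microglia and macrophage markers, beside 23.6% of all tested genes. In that comparison edgeR called 0 of the 16. The part of such cells in the antibody gene differences was not tested.

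Markers of blood and of tissues next to the cerebellum were read as well. The 5 red blood cell markers in the table summed to 45.4 to 369 CPM in N1ICD, 24.9 to 151 in S100b-cell, 0.231 to 14.9 in MYC-Otx2 and 2.21 to 42.6 CPM in MYC-Gfi1 tumours. The 8 choroid plexus markers, which include Otx2 itself, summed to 6.28 to 4749 CPM in N1ICD, 2.85 to 19.9 in S100b-cell, 39.0 to 106 in MYC-Otx2 and 32.2 to 606 CPM in MYC-Gfi1 tumours. The 8 meningeal fibroblast markers summed to 280.4 to 1027 CPM in N1ICD, 433 to 454 in S100b-cell, 47.0 to 123 in MYC-Otx2 and 171 to 407 CPM in MYC-Gfi1 tumours. The 8 neutrophil markers summed to 2.57 to 13.6 CPM in N1ICD, 5.89 to 28.1 in S100b-cell, 0.989 to 2.43 in MYC-Otx2 and 10.2 to 24.5 in MYC-Gfi1 tumours. The part of these tissues in the antibody gene differences was not tested.

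The genes whose profiles over the 11 libraries lay nearest to that of Igkc were found by the root mean square difference of log2(CPM + 0.5), each profile centred on its mean. They were Ighg2b at 0.87, Slpi at 1.19, Ighg1 at 1.28, Dmrtc2 at 1.29 and Krt14 at 1.47. Among the 9 genes, Jchain stood at 1.09, Ighg2c at 1.26, Mzb1 at 1.29, Igha at 1.41, Cd79b at 2.26 and Cd52 at 2.70. Slpi, a secreted protease inhibitor of mucosal surfaces and leukocytes, had 0, 1.39 and 0 CPM in the N1ICD tumours, 11.8, 2.49 and 124 CPM in S100b-cell tumours, 0, 0.125 and 0 CPM in the MYC-Otx2 tumours, and 704 and 48.2 CPM in the MYC-Gfi1 tumours. Like Igkc, it was highest in MYC-Gfi1 replicate 1, then in S100b-cell replicate 3, then in MYC-Gfi1 replicate 2. Krt14 encodes a keratin of stratified epithelium and Dmrtc2 a germ cell factor.

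The nearest profiles to Cd79b were other genes: Mbp at 0.33, Cd3e at 0.33, Myadml2 at 0.40, Fam43a at 0.43 and Ogfod2 at 0.46. Mbp, the myelin basic protein gene, had 18.9, 33.1 and 22.7 CPM in the N1ICD tumours, 56.1, 85.3 and 75.7 CPM in S100b-cell tumours, 18.9, 36.7 and 21.6 CPM in the MYC-Otx2 tumours, and 186 and 247 CPM in the MYC-Gfi1 tumours. Cd3e, a chain of the T cell receptor complex, had 0.259, 1.04 and 0.782 CPM in S100b-cell and 1.87 and 1.45 CPM in the MYC-Gfi1 tumours, and 0 counts elsewhere. At such low levels the added 0.5 CPM compresses the differences. Igha stood at 3.17 and Jchain at 2.82 from Cd79b, farther than the 5 genes above.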

How the data were processed

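Total RNA of the tumours was extracted with TRIzol, and 3′ libraries were made with the QuantSeq forward kit, with molecular identifiers added at the second strand, per the labels' protocols. The submitters' processing notes name STAR 2.4.1d, HTSeq 0.6.1 and mm10. The sources used here do not give the annotation release, whether strand was used in counting, or whether identifiers were collapsed. The deposited values were raw counts per gene, with no normalization by the authors.

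From these counts, edgeR 4.0.16 (R 4.3.3) kept 15228 of 38406 genes (filterByExpr by group), scaled by TMM and fitted all 11 libraries in 1 robust quasi-likelihood model of the 4 groups. The groups share 1 estimate of the spread because MYC-Gfi1 had 2 libraries. P-values are two-sided, adjusted by Benjamini-Hochberg over all tested genes, and called at 0.05. They measure the spread between libraries. The SE is the log2 difference over the square root of F. Where a group had 0 counts, the fold is a bound that sets the group at 3 counts in all. Intervals are 95% Wilson intervals. Alternatives used RLE and upper-quartile scaling, no filter, DESeq2 1.42.0, limma-voom (limma 3.58.1), only the groups compared, the replicate number as a block, and each library left out. The fit was tested on simulated data with changes of known size. Depending on the comparison, it recovered 16 to 28% of 4-fold changes and 54 to 82% of 32-fold changes, so many true differences can be missed.

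The 9 genes and all lists were chosen with earlier results of these data known. Beside the 9, the genes named are the called members of each list (at most 4, by p), its 3 most abundant uncalled members at most, and the 5 nearest profiles of Igkc and of Cd79b. Others are marked as named after their values were seen. Positions are from GENCODE M21. Ighd, Iglc1, Iglc3 and Iglc4 are not analysed here. The values of 1 gene of the B cell list are not reported here.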

Additional observations from a re-analysis of the deposited data

How the results depend on the processing

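Of 716 alternative values of the 9 genes' differences, 633 moved by less than the replicate spread and 83 by more, most often under limma-voom (22), without S100b-cell replicate 3 (17) and without MYC-Gfi1 replicate 1 (12). Signs changed in 6 values, all between N1ICD and MYC-Otx2 tumours, where counts were near 0. Genes called over the whole table depended on the tool, and the cause was not tested.

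Under DESeq2, calls among the companion genes were 18 for MYC-Otx2 against MYC-Gfi1, 6 for N1ICD against MYC-Gfi1, 10 for N1ICD against MYC-Otx2, 5 for N1ICD against S100b-cell and 6 for S100b-cell against MYC-Gfi1 tumours. Over all genes DESeq2 called 2677 for MYC-Otx2 against MYC-Gfi1 (832 with edgeR), 3168 for N1ICD against MYC-Gfi1 (1754), 1287 for N1ICD against S100b-cell (185), 2109 for S100b-cell against MYC-Gfi1 (663) and 4127 for S100b-cell against MYC-Otx2 tumours (2727). With only the groups compared in the fit, the companion calls were 4, 1 and 0 against MYC-Gfi1 for MYC-Otx2, N1ICD and S100b-cell, and 3 and 18 against MYC-Otx2 for N1ICD and S100b-cell tumours. Over all genes they were then 365, 15 and 0 against MYC-Gfi1 for the same 3 groups, 83 for N1ICD against S100b-cell and 4622 for S100b-cell against MYC-Otx2 tumours. Limma-voom called 3 companion genes for N1ICD against MYC-Otx2, 7 for S100b-cell against MYC-Gfi1 and 16 for S100b-cell against MYC-Otx2 tumours, and over all genes 1390, 1022 and 1398 against MYC-Gfi1 for MYC-Otx2, N1ICD and S100b-cell tumours.

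Replicate numbers did not pair the libraries: of 15 same-numbered pairs, 3 had a correlation of deviations over 0.1, with a range of -0.169 to 0.187. With the number as a replicate block, companion calls were 2 for MYC-Otx2 against MYC-Gfi1, 4 for N1ICD against MYC-Gfi1, 4 for N1ICD against MYC-Otx2, 0 for N1ICD against S100b-cell, 0 for S100b-cell against MYC-Gfi1 and 6 for S100b-cell against MYC-Otx2 tumours. Over all genes the block gave 209, 789, 2213, 59, 102 and 1904 in the same order of comparisons.

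Leaving out 1 library at a time, companion calls ranged from 0 to 12 for MYC-Otx2 against MYC-Gfi1, 1 to 6 for N1ICD against MYC-Gfi1, 3 to 9 for N1ICD against MYC-Otx2, 0 to 1 for N1ICD against S100b-cell, 0 to 1 for S100b-cell against MYC-Gfi1 and 4 to 12 for S100b-cell against MYC-Otx2 tumours. Over all genes the ranges were 65 to 2170, 797 to 2214, 1654 to 4067, 9 to 283, 12 to 1995 and 1192 to 3482 in the same order. Where MYC-Gfi1 was left with 1 library, that library was assumed to vary like the other groups. Depth limits the N1ICD tumours most, with 2.58 to 3.38 M counts a library.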

Other observations

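Sdc1, the gene of the plasma cell surface proteoglycan CD138 that epithelial and tumour cells also make, did not follow the antibody genes. It had 9.86, 19.5 and 22.3 CPM in the N1ICD tumours, 18.9, 10.7 and 14.2 CPM in S100b-cell tumours, 42.5, 24.4 and 43.3 CPM in the MYC-Otx2 tumours, and 18.8 and 3.78 CPM in the MYC-Gfi1 tumours. The MYC-Otx2 libraries, with at most 9 counts each of the immunoglobulin constant genes analysed, were the highest, and the difference from MYC-Gfi1 tumours did not pass the threshold (1.70 ± 0.65 on the log2 scale, edgeR adjusted p = 0.127). Igll1, a surrogate light chain gene of B cell precursors, had 5, 3 and 1 counts in the S100b-cell libraries, against 44 counts in MYC-Gfi1 replicate 1 and 0 in replicate 2, with 0 in the N1ICD and MYC-Otx2 libraries. Both genes were named after their values were seen.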
